A study of Mus musculus with 6 samples.

Results

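The genes described here are those named for proteins of the mitochondrial ribosome, chosen by their symbols. They are the genes with an Affymetrix probe set that carries exactly 1 gene symbol beginning with Mrpl or Mrps, each read from its probe set with the highest mean. There were 76 such genes, 47 Mrpl and 29 Mrps, among 18194 genes with a probe set of that kind, and their 156 probe sets were part of a table of 45101. All 76 passed the filter on low values and were tested, with 12952 genes tested in all. The set includes Mrps36, since reassigned to another complex, and leaves out proteins of this ribosome with other symbols, such as Dap3.

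Gene expression was measured on 6 Affymetrix mouse 430 2.0 arrays, 3 of mouse inguinal fat cells, differentiated in culture, that received 1 uM rosiglitazone for 4 days, and 3 of control cells of the same kind. Rosiglitazone belongs to the thiazolidinediones, ligands of the fat cell receptor PPARγ, and the label for treatment effect calls the control cells non-activated. The treatment field of the labels names the drug for all 6 samples, so groups were taken from the titles and the treatment characteristic. Strain, sex, age and the number of animals behind the cultures are not given in the sources used here, and the labels do not say that the 3 samples of a group were separate cultures, so each p-value reflects the spread of these samples alone, possibly a technical one.

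Mitochondria carry their own ribosome, which translates the few proteins encoded in mitochondrial DNA, all of them subunits of the respiratory chain and ATP synthase. Its RNA comes from mitochondrial DNA, but all of its proteins are encoded in the nucleus, made in the cytosol and imported. Proteins of the large subunit, which forms peptide bonds, are named Mrpl, and proteins of the small subunit, which reads the messenger RNA, are named Mrps. Brown and beige fat cells are rich in mitochondria, whose respiration they uncouple to release heat.

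Markers of fat cells were bright in both groups. The summed intensity of 8 fat cell markers, among them Adipoq and Fabp4, was 78435 to 79269 on the rosiglitazone arrays and 81918 to 82834 on the control arrays. Of these 8 markers 2 rose (Cidec by 0.28 and Cd36 by 0.19 on the log2 scale) and 3 fell (log2 changes of −0.87 in Retn, −0.36 in Pparg and −0.23 in Lipe), while Adipoq (0.04) and Fabp4 (−0.04) were not called. The sum of 8 markers of heat-producing fat was 26464 to 27519 with rosiglitazone and 7679.7 to 8373 in control cells, and all 8 rose. Ucp1, which encodes the uncoupling protein of heat-producing fat, had intensities of 1485, 1514 and 1485 with rosiglitazone, against 6.95, 4.42 and 4.76 in control cells, where every value lay under the floor of 16 set for the fit. Array medians ran from 44.65 to 46.81, and arrays correlated at 0.994 to 0.996 within groups and at 0.984 to 0.985 between groups (log2 values over all probe sets except controls).

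Genes of the mitochondrial ribosome were almost all higher with rosiglitazone, by modest amounts. Of the 76 genes 71 rose and 1 fell at an adjusted p under 0.05 (limma with Benjamini-Hochberg adjustment over 12952 genes). Over all genes tested, 23.6% were called higher and 35.8% lower, 59.4% in either direction. The median log2 change of the 76 genes was 0.39, with the middle range of values from 0.25 to 0.52, against a median of −0.05 over all genes tested. Of the 71 rises 13 were larger than 1.5-fold, beside 676 of the 3057 rises over all 12952 genes tested. In 70 of the 76 genes all 3 rosiglitazone arrays lay above all 3 control arrays, and in 1 gene all lay below. Among all genes tested, 25.7% lay entirely above and 38.3% entirely below, 64% in either direction.

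The shift was seen on every array. The median log2 intensity of the 76 genes was 11.09, 11.10 and 11.10 on the rosiglitazone arrays, against 10.71, 10.73 and 10.66 on the control arrays. The median of all genes tested stood at 8.25, 8.23 and 8.23 on the rosiglitazone arrays, against 8.36, 8.37 and 8.36 on the control arrays. Replicates were tight for these genes: the median SD of log2 values was 0.03 in rosiglitazone cells and 0.04 in control cells, against 0.07 in both groups over all genes. The 76 genes were also brighter, with a median level of 1888 against 314 over all genes, and spread was not compared at equal brightness. Other scalings gave the same direction: 72 rose and 1 fell after quantile normalization, and 74 rose and 0 fell after centring each array on its median. Over all genes tested, 30.5% were called higher and 29.2% lower after quantile normalization, and 35.2% higher and 25.4% lower after median centring.

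**Figure D1:**
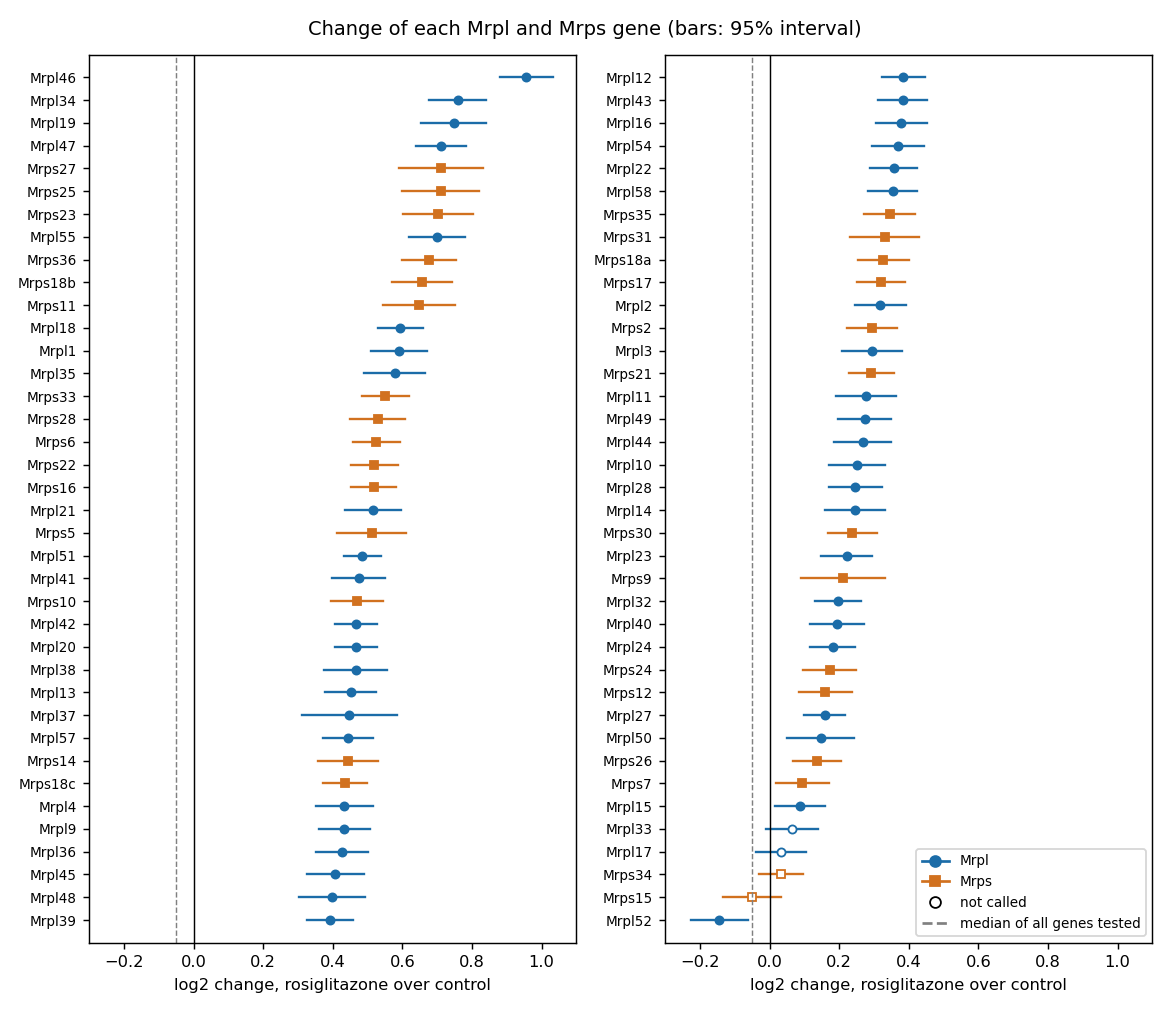
Log2 change (rosiglitazone over control) of each of the 76 genes, largest first, with 95% intervals from limma. Circles are Mrpl and squares are Mrps genes, open symbols are the 4 genes not called, and the dashed line is the median of all genes tested (−0.05). Values run from 0.96 in Mrpl46 to −0.14 in Mrpl52.

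The largest rise was in Mrpl46, which encodes a protein of the central protuberance of the large subunit. Its intensity was 2219.9, 2164 and 2109.8 on the rosiglitazone arrays, against 1102, 1146 and 1101 on the control arrays, a change of 1.94-fold (log2 change 0.96, SE 0.04, adjusted p = 1.37e-12). The groups were far apart, with the lowest treated value well above the highest control value. Mrpl34, a large subunit protein with a bacterial relative, followed at 3463, 3654 and 3876 with rosiglitazone, against 2226, 2169.7 and 2097 in control cells (log2 change 0.76, SE 0.04, adjusted p = 6.2e-11). Mrpl19, another protein shared with bacteria, stood at 1058, 1055 and 992 with rosiglitazone, against 629, 602 and 618 in control cells (log2 change 0.75, SE 0.04). Both groups were again separate in each gene.

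Mrpl47 and Mrpl55, the mitochondrial relatives of bacterial ribosomal proteins L29 and L31, rose by 0.71 and 0.70 on the log2 scale. Mrpl47 averaged 2449.6 ± 45.5 with rosiglitazone and 1496 ± 36.6 in control cells (mean ± SD, n = 3 each), and Mrpl55 averaged 1698 ± 10.9 with rosiglitazone and 1046 ± 39.9 in control cells. In the small subunit the largest rise was in Mrps27, a mitochondria-specific protein of the RNA-binding pentatricopeptide kind. It read 599, 534 and 542 with rosiglitazone, against 353, 338 and 332 in control cells (log2 change 0.71, SE 0.06, adjusted p = 1.47e-08). Mrps25, at 877 ± 43.4 with rosiglitazone and 536 ± 29.0 in control cells, and Mrps23, at 1810.2 ± 109 with rosiglitazone and 1112 ± 54.9 in control cells, are also mitochondria-specific and rose by 0.71 and 0.70. No Mrps gene reached the rise of Mrpl46.

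**Figure D2:**
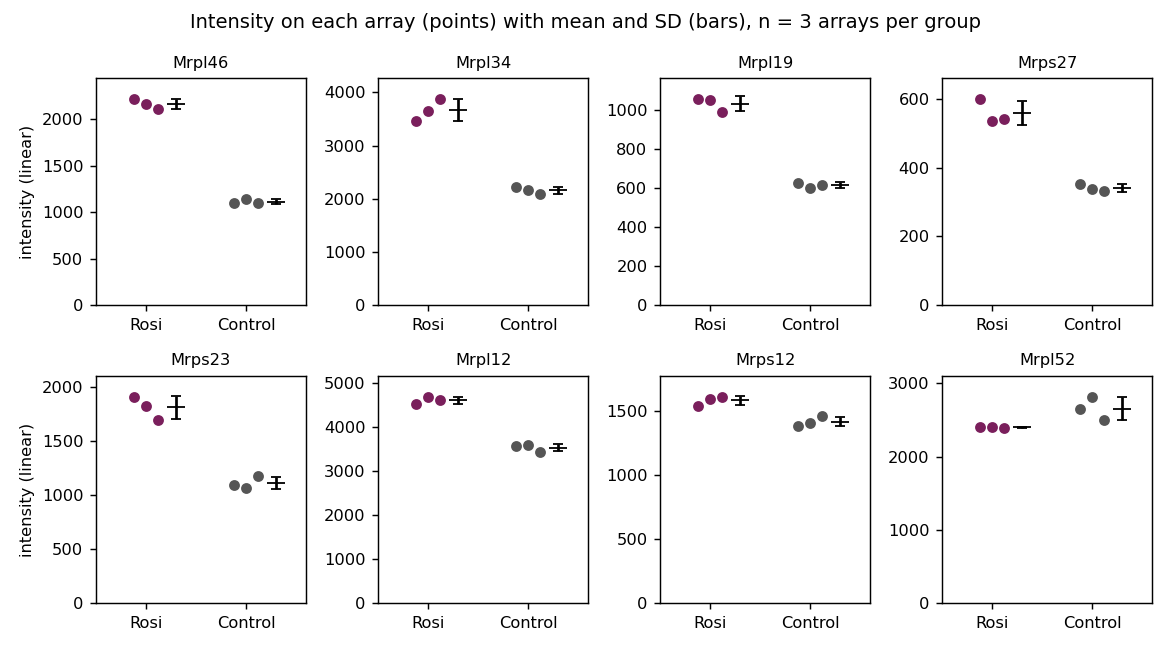
Intensity (linear scale, axes from 0) of 8 genes on each array, rosiglitazone left and control right, with mean and SD beside the points. The groups are separate in all 8 genes, most widely in Mrpl46, and Mrpl52 alone is lower with rosiglitazone.

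A single gene fell. Mrpl52, a mitochondria-specific large subunit protein, read 2403, 2401 and 2396 with rosiglitazone, against 2651, 2817 and 2501 in control cells (log2 change −0.14, SE 0.04, adjusted p = 0.00387). All treated arrays lay below all control arrays, but by little. The call was lost when its probe sets were averaged (−0.02), after median centring (−0.02), with no probe set left out (adjusted p = 0.0703), under a floor of 64 (adjusted p = 0.0523) and in a fit without a variance trend (adjusted p = 0.0547). Its other tested sets had log2 changes of −0.0018 and 0.07, neither of them called. The other 4 genes without a call were named after their values were seen. Mrpl33 had a log2 change of 0.06 (95% interval −0.01 to 0.14), Mrpl17 of 0.03 (−0.04 to 0.11), Mrps34 of 0.03 (−0.03 to 0.10) and Mrps15 of −0.05 (−0.13 to 0.03). All 4 intervals end below the median of 0.39. Mrpl33 and Mrps34 were called higher after quantile normalization and after median centring, and Mrpl17 after median centring. Mrps15 was called lower without control replicate 3 (adjusted p = 0.0499).

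Both subunits rose almost throughout. Of the 47 Mrpl genes 44 rose and 1 fell, with a median log2 change of 0.38, and of the 29 Mrps genes 27 rose and 0 fell, with a median of 0.44. Large minus small was −0.05. Set singly against the control mean, rosiglitazone arrays 1, 2 and 3 gave 0.01, −0.05 and −0.07 (SD 0.04). The difference was 0.013 after quantile normalization and 0.034 with the mean of each gene's probe sets, so its sign is not settled. It was −0.08 without rosiglitazone replicate 1, −0.03 without rosiglitazone replicate 3 and −0.03 without control replicate 1. No test was made of this difference, since it is a score over chosen genes.

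Symbols do not always match the subunit. The Mrps30 and Mrps18a proteins have been placed in the large subunit of the mammalian structure, and Mrps36 has been reassigned to the 2-oxoglutarate dehydrogenase complex of the citric acid cycle. With Mrps30 and Mrps18a counted as large and Mrps36 left out, 46 of 49 large subunit genes rose and 1 fell (median 0.38), and 24 of 26 small subunit genes rose and 0 fell (median 0.44). Mrps36 read 2609, 2680.2 and 2668 with rosiglitazone, against 1687, 1719.8 and 1572 in control cells, and rose by 0.68 (SE 0.04, adjusted p = 1.25e-10). Mrps30 rose by 0.24 (SE 0.03), at 1672 ± 2.44 with rosiglitazone and 1418 ± 12.6 in control cells. The 3 mouse genes related to bacterial protein S18 rose by unequal amounts: Mrps18b by 0.66 (SE 0.04), Mrps18c by 0.44 (SE 0.03) and Mrps18a by 0.33 (SE 0.03).

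Proteins inherited from the bacterial ribosome and proteins found only in mitochondria are given apart. Of 47 genes with a bacterial relative 44 rose and 0 fell, with a median log2 change of 0.38. Of 28 mitochondria-specific genes 26 rose and 1 fell, with a median of 0.39. Changes ran from −0.05 to 0.76 among genes with a bacterial relative and from −0.14 to 0.96 among the mitochondria-specific genes. Of the genes grouped in the central protuberance, at the top of the large subunit, 8 of 8 rose, from 0.16 in Mrpl27 to 0.96 in Mrpl46. Mrpl52, which fell, was not placed in that group. Of 7 genes grouped along the tunnel through which the new chain leaves, 6 rose (median 0.27), the exception being Mrpl17. The others in this group were Mrpl22, Mrpl23, Mrpl24, Mrpl39, Mrpl44 and Mrpl45. The grouping is not complete: Mrpl47, the relative of L29, was left out of it and rose by 0.71. Mrpl45, which anchors the ribosome at the inner membrane, rose by 0.41 (SE 0.04), at 1788 ± 64.8 with rosiglitazone and 1349 ± 42.2 in control cells.

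All 3 genes of the stalk, which recruits translation factors, rose. Mrpl12, its flexible protein, also reported to bind the mitochondrial RNA polymerase, read 4510.4, 4683 and 4609 with rosiglitazone, against 3564, 3581 and 3429 in control cells (log2 change 0.38, SE 0.03, adjusted p = 6.65e-09). Mrpl11 and Mrpl10, the base of the stalk, rose by 0.28 (SE 0.04) and 0.25 (SE 0.04). In each of them the groups did not overlap. Of the Mrps genes grouped in the small subunit head 7 of 7 rose, from 0.09 in Mrps7 to 0.55 in Mrps33. Dap3, a head protein with another kind of symbol, was not called (log2 change 0.01). The call of Mrps7 was lost in 6 of 18 alternatives, among them leaving out any 1 rosiglitazone array or control replicate 2, and that of Mrps9 in 4 of 18, with weaker filters, a floor of 64 or no variance trend. Mrps12, a protein of the decoding centre, rose by 0.16 (SE 0.04, adjusted p = 0.00116). It read 1545, 1598 and 1615 with rosiglitazone, against 1389.7, 1408 and 1461 in control cells. Mrpl41, a mitochondria-specific large subunit gene, rose by 0.47 (SE 0.04).

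The relation of change to level was weak and its size varied with the arrays used. A probe set's brightness reflects its probes as well as its transcript, so the level here orders probe sets and not transcripts. In the 26 dimmest of the 76 genes (mean intensity 436 to 1554) 26 of 26 rose, with a median log2 change of 0.44. In the 25 of middle brightness (1583 to 2382) 24 of 25 rose, with a median of 0.34, and in the 25 brightest (2405 to 7119) 21 of 25 rose and 1 fell, with a median of 0.44. All genes tested within the same 3 ranges were called higher at 29.2%, 35.5% and 46.1%, and had medians of −0.07, −0.03 and 0.05. Of the 5 genes that did not rise, 4 were among the brightest, namely Mrpl33, Mrpl17, Mrps34 and Mrpl52.

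Across the 76 genes the Spearman correlation of level with change was −0.16 (Pearson −0.24), and it was −0.11 within Mrpl (Pearson −0.17) and −0.20 within Mrps (Pearson −0.36). Set singly against the control mean, rosiglitazone arrays 1, 2 and 3 gave Spearman correlations of −0.29, −0.14 and −0.05 over the 76 genes (SD 0.12), and without rosiglitazone replicate 3 the value was −0.26. The points share the same 6 arrays, and the level and the change come from the same values. The correlation was −0.30 after quantile normalization and 0.030 with the mean of each gene's probe sets. The correlation over the 5265 genes in the same range of levels was 0.12. Both the dimmest and the brightest genes rose. Mrpl37, the dimmest Mrpl gene at 515 ± 52.5 with rosiglitazone and 376 ± 3.50 in control cells, rose by 0.45 (SE 0.06), and Mrpl51, the brightest, rose by 0.49 (SE 0.02). Mrpl51 read 8492, 8364 and 8412 with rosiglitazone, against 5955, 6169 and 5930.0 in control cells.

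**Figure D3:**
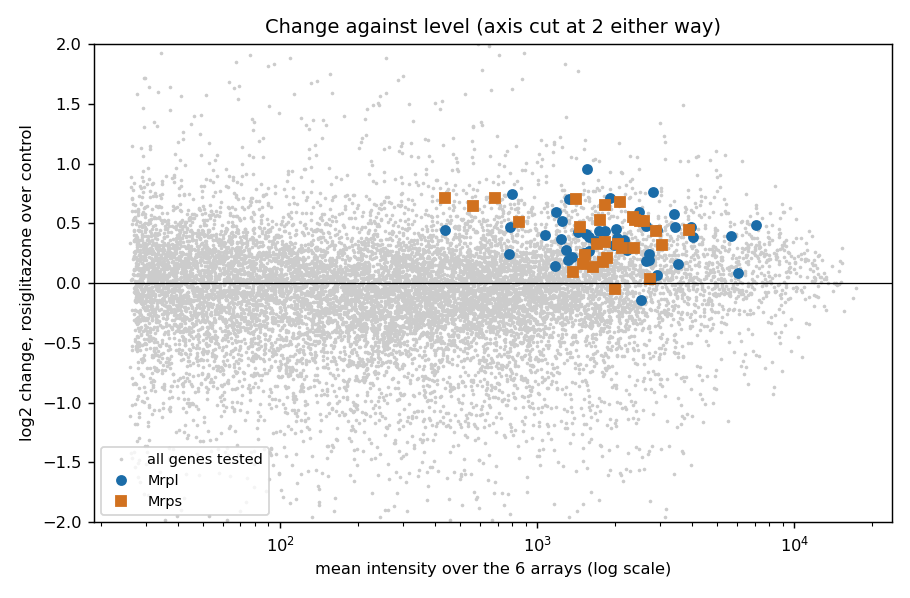
Log2 change (rosiglitazone over control) against mean intensity over the 6 arrays (log axis). Grey points are all genes tested, blue circles are Mrpl and orange squares are Mrps genes, and genes with a change beyond 2 either way are outside the axes. The 76 genes lie between intensities of 436 and 7119, mostly above 0 over that whole range.

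Further genes at either end of the brightness range also rose. Mrpl14, a dim Mrpl gene, rose by 0.25 (SE 0.04), and Mrps11, a dim Mrps gene that encodes a protein of the small subunit platform, rose by 0.65 (SE 0.05). Mrps14, the brightest Mrps gene, read 4248, 4649.9 and 4728.5 with rosiglitazone, against 3240.0, 3264 and 3513 in control cells (log2 change 0.44, SE 0.04). Mrps17, also bright, rose by 0.32 (SE 0.03).

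Mrpl15, the second brightest of the Mrpl genes, shows what rests on the choice of probe set. Its brightest set, whose identifier ends in _x_at, Affymetrix's mark for probes that may also match other sequences, read 6330.4, 6219.8 and 6162 with rosiglitazone, against 5889, 6189.9 and 5552 in control cells (log2 change 0.09, SE 0.03, adjusted p = 0.0341). The groups overlapped, and the call was lost without rosiglitazone replicate 1 or 2 (0.08 and 0.09) or control replicate 1 or 3 (0.09 and 0.05). It was also lost after quantile normalization (0.02), with weaker filters, with a floor of 64 and without a variance trend, and with the mean of the gene's sets the change was 0.46. Its next set read 2438, 2417 and 2364 with rosiglitazone, against 1405, 1444 and 1471 in control cells, a log2 change of 0.74. In all 5 of its 7 tested sets were called higher, up to 0.76, and 0 lower.

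Other probe sets of the same genes mostly moved the same way. Of the 76 genes 38 had at least 2 probe sets that passed the filter. Their 64 further sets had a median log2 change of 0.32, and 41 were called higher, 2 lower and 21 not called in a fit over 27022 probe sets. In that fit 21.2% of all probe sets were called higher and 30.7% lower. In 32 of the 38 genes all sets had the same sign. One gene, Mrpl1, had sets called in opposite directions. Its brightest set read 1439, 1476 and 1419 with rosiglitazone, against 979, 934 and 963 in control cells (log2 change 0.59, SE 0.04), while a dimmer set read 243, 299.4 and 299.99 with rosiglitazone, against 389.6, 305 and 333 in control cells (log2 change −0.29, adjusted p = 0.0182). The second set called lower belonged to Mrps15 (−0.12, adjusted p = 0.0478). Which transcripts each set reads was not examined.

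**Figure D4:**
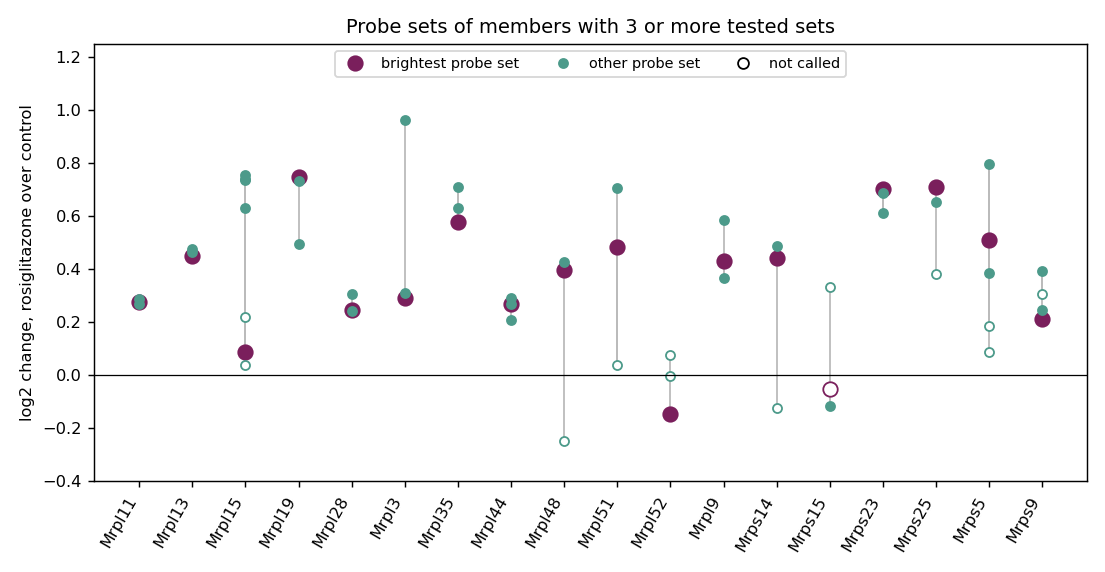
Log2 change (rosiglitazone over control) of each tested probe set of the 18 genes with 3 or more such sets. Large purple points are the brightest set of each gene, small green points the others, and open points were not called. The sets of Mrpl11 and Mrpl13 almost coincide, while those of Mrpl15 spread from 0.04 to 0.76.

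Other parts of mitochondrial translation rose as well. Of 7 listed proteins of this ribosome with other symbols 4 were tested (2 of the 7 are older names of Mrpl57 and Mrpl58), and 3 rose (median 0.33). Ptcd3, which sits near the messenger RNA entry of the small subunit, rose by 0.48 (SE 0.04), Chchd1 by 0.38 (SE 0.03) and Gadd45gip1, a large subunit protein also called CRIF1, by 0.29 (SE 0.06). The remaining one, Dap3, a GTP-binding protein of the small subunit head, read 1858, 1841 and 1869 with rosiglitazone, against 1845, 1849 and 1841 in control cells (log2 change 0.01, SE 0.03, adjusted p = 0.834). Its groups overlapped, and its 95% interval was −0.06 to 0.08.

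Of 15 translation factors and related proteins 11 rose and 1 fell (median 0.27). Mtif3 and Mtif2, the initiation factors, rose by 0.74 (SE 0.06) and 0.57 (SE 0.04). Mtif3 read 457, 451 and 467 with rosiglitazone, against 282, 256 and 285 in control cells. Slirp, which stabilises mitochondrial messenger RNA, rose by 0.47 (SE 0.03). Pdf, the deformylase of new mitochondrial chains, had a log2 change of −0.11 (adjusted p = 0.0496), a call lost after quantile normalization (−0.01), after median centring (0.02) and with any array left out except control replicate 3.

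Of 27 assembly and RNA modification factors 19 rose and 2 fell (median 0.30). Mtg1, a GTPase that matures the large subunit, rose by 0.76 (SE 0.05), Fastkd2, which binds the large ribosomal RNA, by 0.75 (SE 0.04), and Mterf4, the partner of the RNA methyltransferase Nsun4, by 0.75 (SE 0.06). Mtg1 read 687, 683 and 682 with rosiglitazone, against 408, 405 and 401 in control cells, with no overlap. The falls were in Mpv17l2, reported to act in assembly of both subunits (−0.40, SE 0.08, adjusted p = 0.000372), and Mtg2, a GTPase of the large subunit (−0.15, adjusted p = 0.0377). The call of Mtg2 was lost after quantile normalization and median centring (−0.03 in both) and with any array left out except control replicate 3.

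Larger lists are given for scale. Among 80 nuclear genes of respiratory chain and ATP synthase subunits 73 rose and 2 fell, with a median of 0.25. Among 47 genes of cytosolic ribosomal proteins, taken by the form of their symbols, 4 rose (8.51%) and 13 fell (27.7%), with a median of −0.03 as deposited. The largest of these rises were in Rpl39l (0.24) and Rps27l (0.20). Mean levels in this list ran from 89 to 14900, with a median of 8430. Over all genes tested 23.6% were called higher and 35.8% lower, with a median of −0.05. The counts of the cytosolic list depended on the scaling. After quantile normalization 5 rose and 25 fell (median −0.06), but 25 rose and 1 fell after median centring (median 0.09). The median of the 76 mitochondrial ribosomal genes was 0.44 after quantile normalization and 0.51 after median centring. No symbol of a gene on mitochondrial DNA was among those tested.

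**Figure D5:**
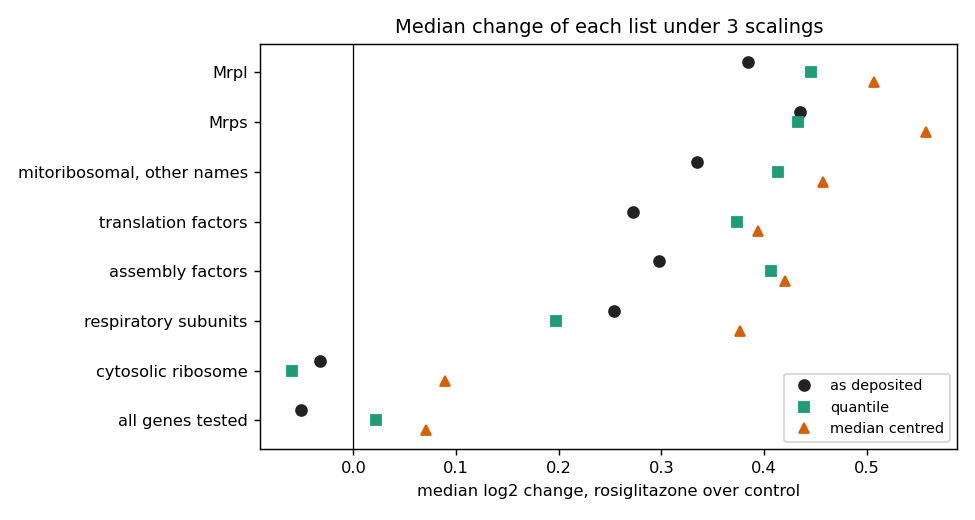
Median log2 change (rosiglitazone over control) of each gene list as deposited (circles), after quantile normalization (squares) and after median centring (triangles). Mrpl and Mrps medians lie between 0.38 and 0.56 under all 3 scalings, while cytosolic ribosomal genes change sign, from −0.06 to 0.09.

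Markers of several other cells that such a culture can hold fell. The summed intensity of 13 macrophage markers was 4070 to 4387 on the rosiglitazone arrays and 11970 to 13038 on the control arrays. Of 11 tested 10 fell, and Cd163 was at or under an intensity of 16 on all arrays. Markers of progenitors and fibroblasts summed to 11675 to 12370 with rosiglitazone and 24571 to 25261 in control cells (8 markers, 6 of 7 tested fell, Dpp4 at or under 16 throughout). Smooth muscle markers summed to 4831 to 4958 with rosiglitazone and 8784 to 9289 in control cells (6 of 6 fell), and 7 endothelial markers to 187 to 211 with rosiglitazone and 409 to 419.9 in control cells (2 of 2 tested fell, Emcn at or under 16). The lower endothelial sum rests on those 2, Flt1 (mean 74.5 with rosiglitazone, 220.5 in control cells) and Tek (58.1 and 128.3). The other endothelial markers were too dim to pass the filter. Lymphocyte markers summed to 276 to 290 with rosiglitazone and 435 to 444 in control cells (4 markers, Cd3e at or under 16). Of 3 tested only Ptprc fell, averaging 134.7 with rosiglitazone and 303.3 in control cells. Cd8a (log2 change 0.006) and Cd79b (0.50) were not called, so the lower sum rests on Ptprc. Markers of cycling cells summed to 2017 to 2024 with rosiglitazone and 2926 to 3012 in control cells (6 of 6 fell). Skeletal muscle markers summed to 434 to 495 with rosiglitazone and 411 to 442 in control cells (6 markers, 2 of 3 tested rose, Tnnt3 at or under 16), and epithelial markers to 176 to 189 with rosiglitazone and 178 to 198 in control cells (5 markers, 0 of 2 tested called, Cdh1 at or under 16). The part of these cells in the rise of the ribosomal genes was not tested. In bulk samples fewer cells of a type and less RNA per cell cannot be told apart.

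Promoters are shown because the genes moved together. RefSeq (GRCm38.p6) gave 73 promoters, from 250 bases before to 50 after the start, for 67 of the 76 genes. Consensus letters were searched on both strands for factors known from genes of mitochondrial biogenesis: the palindrome-like site of NRF1, CCGGAAG for the ETS factor GABP and AAGATGGC for YY1. Among genes with 1 listed start and no start of another gene in the window, the lines give the 250 bases before the start of the largest riser, of the largest riser with each further motif, and of Mrpl52, the 1 gene that fell. Capitals mark a match on either strand.
Mrpl34, chr8:71464676-71464925, plus strand: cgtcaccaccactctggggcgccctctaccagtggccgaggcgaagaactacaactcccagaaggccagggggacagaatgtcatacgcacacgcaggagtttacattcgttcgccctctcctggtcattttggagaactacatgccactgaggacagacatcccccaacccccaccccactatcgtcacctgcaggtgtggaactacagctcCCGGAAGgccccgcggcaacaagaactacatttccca
Mrpl9, chr3:94443086-94443335, plus strand: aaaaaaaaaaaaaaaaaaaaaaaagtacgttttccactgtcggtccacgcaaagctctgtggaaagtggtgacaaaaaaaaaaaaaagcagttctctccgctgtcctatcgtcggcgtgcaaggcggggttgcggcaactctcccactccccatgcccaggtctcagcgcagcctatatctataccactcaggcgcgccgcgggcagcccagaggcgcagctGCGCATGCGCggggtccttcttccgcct
Mrpl36, chr13:73330759-73331008, plus strand: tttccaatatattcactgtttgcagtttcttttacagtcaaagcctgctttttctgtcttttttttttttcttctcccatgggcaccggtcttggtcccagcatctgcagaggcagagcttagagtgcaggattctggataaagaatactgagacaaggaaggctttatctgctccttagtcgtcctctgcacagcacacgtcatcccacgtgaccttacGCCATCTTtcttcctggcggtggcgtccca
Mrpl52, chr14:54426659-54426908, plus strand: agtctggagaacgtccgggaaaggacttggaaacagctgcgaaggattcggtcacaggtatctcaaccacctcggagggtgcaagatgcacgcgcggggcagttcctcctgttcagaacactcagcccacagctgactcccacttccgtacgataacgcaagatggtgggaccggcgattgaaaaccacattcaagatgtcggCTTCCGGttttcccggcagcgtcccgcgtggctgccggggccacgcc

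The promoter of Mrpl34, which rose, and that of Mrpl52, whose call as lower was lost in 5 of 18 alternatives, both held a GABP match. The Mrpl9 promoter held an NRF1 match and that of Mrpl36 a YY1 match, and these genes rose by 0.43 each. The GABP letters were in 25 of 73 promoters (34.2%), against 16% of 13333 promoters of genes tested and 8.86% of all 32851 promoters. NRF1 letters were in 12 (16.4%, against 9.35% and 4.6%), and YY1 letters also in 12 (16.4%, against 4.07% and 2.75%). Median GC content was 58.7% in the 73 promoters and 60.3% in those of genes tested. The letters TCAAGGTCA of the ERR receptors and the direct repeat bound by PPAR were in 0 of the 73 windows, and in 0.263% and 0.0225% of promoters of genes tested.

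Median changes are given with and without each motif. The 25 genes with a GABP match had a median log2 change of 0.40, against 0.38 in the 42 without, and the 12 with a YY1 match 0.38, against 0.38 in the 55 without. The 12 genes with an NRF1 match had a median of 0.28, against 0.43 in the 55 without. These are descriptions of letters in a window, and no binding was measured.

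Several of these genes start back to back with a neighbour. Mrpl46 and Mrps11 begin 42 bases apart on opposite strands, and both rose, by 0.96 and 0.65. Mrps27 begins 108 bases from Ptcd2, a gene of another pentatricopeptide protein, which rose by 0.65 (adjusted p = 1.65e-09). In all 22 of the 67 genes had a tested neighbour starting within 1000 bases upstream on the other strand. Of the 20 neighbours outside the set 7 rose and 1 fell, with a median log2 change of 0.09, beside 23.6% called higher and 35.8% called lower over all genes tested. The fall was in Zfp189 (−0.62, adjusted p = 7.2e-05), the neighbour of Mrpl50, which itself rose by 0.15 (SE 0.05), a call lost in 6 of 18 alternatives, among them without rosiglitazone replicate 1.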

How the data were processed

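Total RNA of 6 samples was hybridised as biotinylated cRNA to 1-colour Affymetrix mouse 430 2.0 arrays, per the labels. The authors' deposited values are one linear intensity for each probe set and array. Background correction, summarization and normalization software are not given in the sources used here. Array medians and means were nearly equal, but whether the arrays had been brought to a common level before deposit is not stated.

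Probe sets were named through the platform's annotation: 34958 had 1 gene symbol, 932 several (4 with a Mrpl or Mrps symbol among them, not used), 9160 were not listed and 64 were controls. The counts add to slightly more than the 45101 probe sets of the table, so they are not a clean division of it. Symbols of the 76 genes did not change through a reference table (GRCm38.p6). Intensities under 16 were set to 16 and log2 was taken. Controls were left out, as were probe sets in the lowest 40% by mean (under 27.3). Each gene was its probe set with the highest mean. The test was that of limma 3.58.1 (R 4.3.3; lmFit, then eBayes with a trend, two-sided, no covariate), adjusted by Benjamini-Hochberg over 12952 genes, at 0.05. SE and 95% intervals are limma's. An exact permutation test of 3 against 3 cannot go below 0.1. The fit was tested on simulated data with 200 changed genes.

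The members, lists and tests were chosen with earlier results of these data known. Genes named were the 8 largest rises and falls among called members whose groups did not overlap, a fixed set of 10 (Mrpl10, Mrpl11, Mrpl12, Mrpl41, Mrps12, Mrps18a, Mrps18b, Mrps18c, Mrps30 and Mrps36), the 2 brightest and 2 dimmest of each prefix, members with sets called in opposite directions, up to 3 called genes each way per named list, and Ucp1 and Cidea (Cidea 4610.5 ± 140 with rosiglitazone and 52.8 ± 6.38 in control cells). Any further gene was picked after seeing its values. The grouping by bacterial relative and by site came from general knowledge of the mammalian structure.

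Alternatives were 3 other filters (none, 20% and 60%), median centring, quantile normalization, a floor of 64, log2(value + 1), averaged probe sets, robust eBayes, eBayes without a trend, the replicate number as a block, an adjusted p under 0.01, subunits by structure and each array left out. The number of arrays limits precision.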

Additional observations from a re-analysis of the deposited data

How the results depend on the processing

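The count of 71 genes called higher stayed between 67 and 74 under all alternatives run, and 36 of 41 named genes kept their direction and call in each. The exceptions were Mrpl52, Mrpl15, Pdf, Mpv17l2 and Mtg2. Of the 71 rises 67 were called in every alternative, the others being Mrps9, Mrpl50, Mrps7 and Mrpl15. The 1 call lower, in a Mrpl gene, became 0 with no filter on low values, after median centring, with a floor of 64, with the mean of a gene's probe sets and without a variance trend. With an array left out it ranged from 1 to 2 over all genes of the set and from 0 to 1 among Mrps genes, the second call coming without control replicate 3. The median log2 change of 0.39 was 0.44 after quantile normalization, 0.51 after median centring and 0.37 with the mean of probe sets, and 0.37 to 0.39 with an array left out. The median of all genes tested was 0.07 after median centring, 0.02 after quantile normalization and −0.05 as deposited, and the 76 genes exceeded it by 0.44, 0.42 and 0.44. The difference of medians, large minus small, was −0.05 and turned to 0.013 after quantile normalization and 0.034 with the mean of probe sets. The correlation of change with level, −0.16, was −0.30 after quantile normalization, turned to 0.030 with the mean of probe sets and was −0.26 to −0.13 with an array left out. Pdf turned to 0.017 after median centring, and Mpv17l2 was not called without a filter (adjusted p = 0.0576). The cause of these changes was not tested. Same-numbered samples deviated together at correlations of −0.02, −0.02 and 0.06, and samples with different numbers at −0.08 to 0.09. Deviations from a mean of 3 arrays are tied to one another, so these values cannot tell whether the numbers paired the samples. With the replicate number as a block 71 rose and 1 fell, and among named genes the calls of Pdf and Mtg2 were lost (adjusted p = 0.0632 and 0.051).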
